A study of Mus musculus with 5 samples.

Results

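The genes described here were all but silent in wild type (WT) CD4 SP thymocytes and were counted in both libraries of *Tet2/3* DKO cells. An autosomal gene was taken when it had at most 3 counts in each of the 3 WT libraries and at least 20 in each of the 2 DKO libraries. The limits were met by 23 of 55487 counted genes, or 23 of the 50957 autosomal genes with coordinates. In all, 34544 autosomal genes stayed within the WT limit, so the 23 were 0.0666% of them. The genes were thus chosen by these counts, so the difference between the genotypes is described here and not tested.

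CD4 SP cells are thymocytes that have stopped expressing CD8, kept CD4 and passed selection on MHC class II. RNA was sequenced from sorted thymus cells of C57BL/6J mice aged 21 to 30 days, with 1 library per mouse. WT mice carried no *Tet* mutation, and DKO mice carried a germline deletion of *Tet2* and floxed *Tet3* alleles deleted by a CD4-driven Cre, which is active in T cells from the stage at which CD4 is switched on (Tet2-/-Tet3flx/flxCD4cre). In both genotypes the sorted cells were live, CD24 low, CD4+ and TCRβ+, lacked CD8 and did not bind the CD1d tetramer that marks iNKT cells. The *Tet2* deletion of the DKO mice thus covered every cell type, not T cells alone.

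TET enzymes are known for helping cells to remove methyl marks from DNA, starting with the conversion of a methylated cytosine to its hydroxymethylated form. In mammals these marks sit mostly at CpG dinucleotides, and promoters differ widely in how many CpG they hold. Genes of other tissues, such as those of sensory neurons, brain or epidermis, are usually not transcribed in T cells.

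Counts per library ran from 17607089 to 27267031, and the deepest DKO library was shallower than each WT library. *Tet3*, the gene deleted by Cre, was counted 1133, 1082 and 1440 times in the WT libraries, in the order of their replicate numbers, and 419 and 235 times in the DKO libraries. This order is kept for all values given by library. *Tet2* was not lower in DKO, where its libraries held 1919 and 1048 counts after 1355, 1286 and 1585 in WT (log2 fold change 0.46, edgeR adjusted p = 0.135), and counts per gene do not show which exons the reads came from. All 10 genes of the CD4 T cell list were tested, and 4 of them were lower in DKO, where 1.50% of all tested genes were called lower. By its label WT replicate 1 came from a female and each other library from a male, while the methods name males only. *Xist* had 744 counts in DKO replicate 1 and at most 2 in each other library, and 4 Y-linked genes together had 7 counts there and 5101 to 7041 elsewhere, so WT replicate 1 and DKO replicate 1 went against their labels. DKO replicate 1 also had the highest share of reads on no feature, 5.70% against 3.51% to 3.72%. X- and Y-linked genes could not enter the set, and 0 of them met the limits. With the DKO limit asked of DKO replicate 2 alone, 115 autosomal genes qualified, and asked of DKO replicate 1 alone, 36 did.

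Promoter windows from RefSeq (build GRCm38.p6, 250 bases before to 50 after the annotated start) were found for 17 of the 23 genes. The windows shown are those with no CpG in the most abundant gene and in a receptor of NK cells, and the 3 with the most CpG. Each is printed 5′ to 3′ on the gene's strand, with every CpG in capitals. They are chr17:19504561-19504860 (plus strand) for *Vmn2r100*, chr7:4337474-4337773 (plus) for *Ncr1*, chr11:16751953-16752252 (plus) for *Egfr*, chr2:74762730-74763029 (plus) for *Hoxd1* and chr17:62881268-62881567 (minus) for *Efna5*.
Vmn2r100: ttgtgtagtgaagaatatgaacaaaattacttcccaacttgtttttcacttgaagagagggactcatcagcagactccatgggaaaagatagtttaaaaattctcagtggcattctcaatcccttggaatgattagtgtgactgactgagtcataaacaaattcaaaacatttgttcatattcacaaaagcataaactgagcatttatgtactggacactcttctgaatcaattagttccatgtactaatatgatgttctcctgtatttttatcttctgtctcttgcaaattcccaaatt
Ncr1: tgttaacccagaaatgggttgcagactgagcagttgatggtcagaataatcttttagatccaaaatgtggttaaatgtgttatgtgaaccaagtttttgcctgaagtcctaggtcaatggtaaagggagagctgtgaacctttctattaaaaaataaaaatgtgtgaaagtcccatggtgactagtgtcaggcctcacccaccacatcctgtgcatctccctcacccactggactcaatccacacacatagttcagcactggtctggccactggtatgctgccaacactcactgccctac
Egfr: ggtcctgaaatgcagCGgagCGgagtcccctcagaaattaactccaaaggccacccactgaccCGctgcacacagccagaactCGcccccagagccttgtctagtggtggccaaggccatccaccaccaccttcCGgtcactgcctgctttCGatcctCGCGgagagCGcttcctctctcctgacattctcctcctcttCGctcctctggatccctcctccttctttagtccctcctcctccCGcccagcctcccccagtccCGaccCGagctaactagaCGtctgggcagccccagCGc
Hoxd1: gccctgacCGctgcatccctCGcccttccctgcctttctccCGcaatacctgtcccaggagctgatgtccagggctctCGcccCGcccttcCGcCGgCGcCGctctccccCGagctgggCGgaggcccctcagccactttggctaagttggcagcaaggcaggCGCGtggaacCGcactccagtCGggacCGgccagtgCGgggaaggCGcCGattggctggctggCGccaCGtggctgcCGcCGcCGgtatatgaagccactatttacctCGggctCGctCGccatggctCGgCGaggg
Efna5: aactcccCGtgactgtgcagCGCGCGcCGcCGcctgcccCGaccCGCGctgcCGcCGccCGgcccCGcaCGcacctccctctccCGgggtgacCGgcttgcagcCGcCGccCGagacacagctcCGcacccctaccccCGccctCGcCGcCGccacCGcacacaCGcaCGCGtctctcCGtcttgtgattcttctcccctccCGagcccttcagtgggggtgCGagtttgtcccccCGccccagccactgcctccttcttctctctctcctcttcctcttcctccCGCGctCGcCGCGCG
The 300-base windows of *Vmn2r100* and *Ncr1* held 0 CpG, that of *Egfr* held 15, that of *Hoxd1* 29 and that of *Efna5* 38. The motif counted was CG, which reads the same on both strands.

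Over the 17 windows the median was 7 CpG, and the counts ran from 0 to 38. The median was 13 over the windows of 17363 genes, 21 over those of 8707 tested genes and 10 over those of 191 other genes called higher in DKO. The 7004 other autosomal genes silent in WT had a median of 5, the nearest of these to the value of the 17. *Vax2* and *Ralyl*, among the most abundant of the 23, are not in the 17. Windows with no CpG belonged to *Vmn2r100*, *Ncr1* and *Gm15987*, 17.6% of the 17, against 3.61% of all windows and 7.35% of those of the other silent genes. At the other end, 2 of the 17 windows held 20 CpG or more (11.8%), against 36.2% of all windows and 14.7% of those of the other silent genes. The remaining windows lay between 3 CpG, in *Htra3* and *Tmem273*, and 15 in *Egfr*. Windows of 3 genes were above the median of all windows by number of CpG, and windows of 4 by observed over expected CpG. The methylation of these windows was not measured in these libraries.

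**Figure D1:**
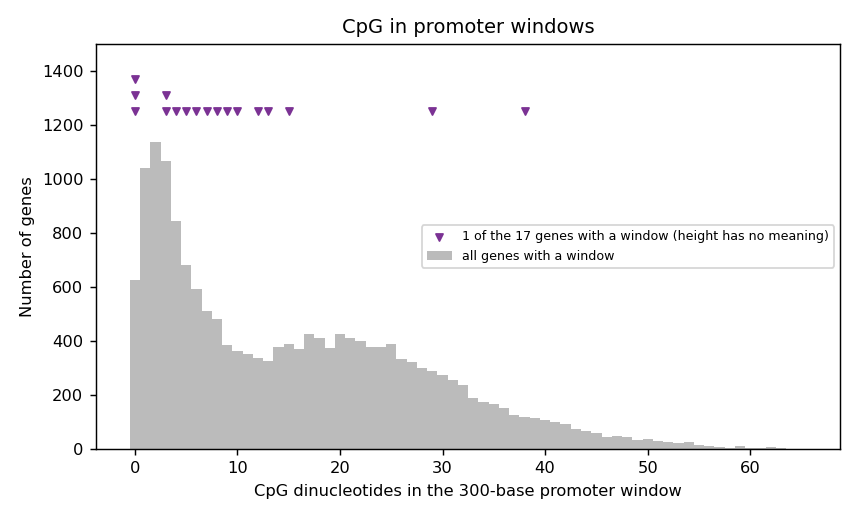
CpG dinucleotides in the 300-base promoter window (horizontal axis) against the number of genes (vertical axis, grey bars, all 17363 genes with a window). Each triangle is 1 of the 17 genes with a window, and most sit at 15 CpG or fewer, with *Hoxd1* at 29 and *Efna5* at 38.

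By biotype, 19 of the 23 were protein-coding genes (82.6%), 2 were antisense RNAs, 1 was a lincRNA and 1 was a joining segment of a T cell receptor locus. Protein-coding genes made up 24.9% of the autosomal genes silent in WT, 40.8% of all annotated autosomal genes and 83.6% of the tested ones. Antisense RNAs were 8.70% of the set, through 2 genes. They were 6.35% of the autosomal genes silent in WT, 5.72% of all annotated autosomal genes and 2.69% of the tested ones. The sum over the 23 genes was 27, 24 and 24 counts in the WT libraries, against 991 and 1758 in the DKO libraries. Scaled to equal library size (CPM), that was 1.03, 1.02 and 0.880 in WT and 46.4 and 99.8 in DKO. The most abundant gene, *Vmn2r100*, made up 21.9% of the sum in DKO replicate 1. In bulk RNA, a gene transcribed in a few cells and a gene transcribed weakly in many cannot be told apart.

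**Figure D2:**
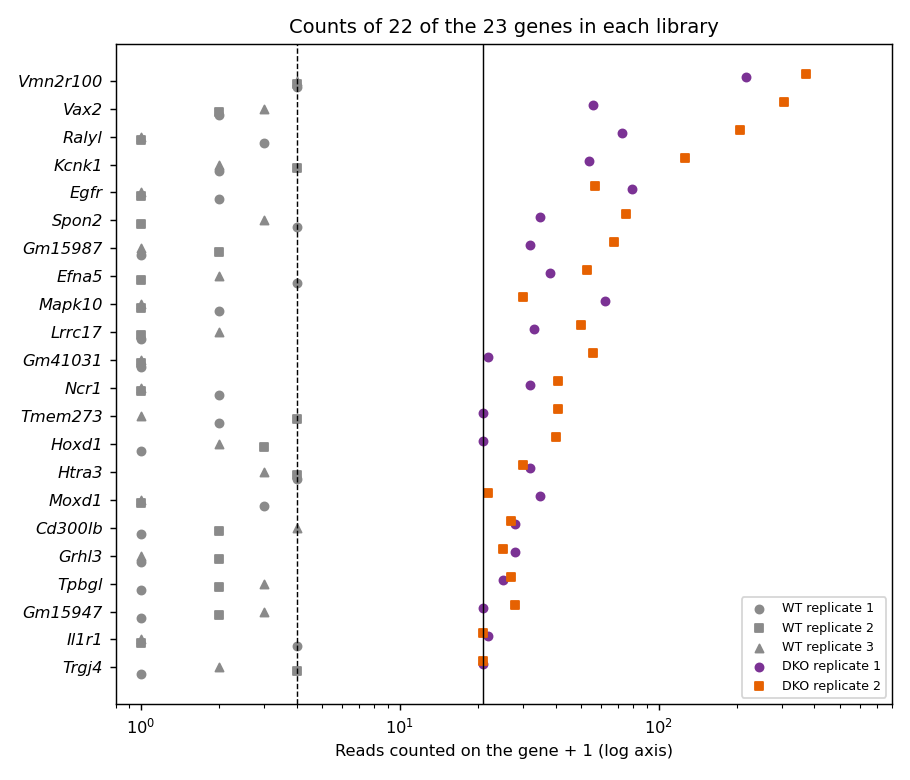
Reads counted on each of 22 of the 23 genes plus 1 (log axis) in the 5 libraries, with genes ordered by mean level in DKO. The dashed line marks 3 counts, the WT limit, and the solid line 20 counts, the DKO limit. *Vmn2r100*, *Vax2* and *Ralyl* had 205 to 369 counts in DKO replicate 2, while *Trgj4* and *Il1r1* lay at the limit.

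Among regulators of transcription and RNA, *Vax2* (ENSMUSG00000034777, chromosome 6 of mm10 from 83711264 to 83738313, plus strand) encodes a homeodomain factor of the ventral eye and forebrain. The WT libraries held 1, 1 and 2 counts of it and the DKO libraries 55 and 305. Both DKO libraries lay far above the WT libraries, and they also lay far from each other. The ratio of DKO to WT, from counts summed over each group and scaled by library size, was 178, with a 95% interval of 69.1 to 658. Such intervals are exact (Clopper-Pearson) and cover counting error only, not the spread between mice. Reads without molecular identifiers are also not independent molecules. Of the other 9 genes of the eye field and forebrain list, *Vax1*, *Six6*, *Rax*, *Otx2* and *Sox2* had 0 counts in all 5 libraries, and 0 were tested by edgeR. Also of this list, *Pax6*, *Six3* and *Lhx2* had at most 11 counts in any library.

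*Ralyl* (ENSMUSG00000039717, chromosome 3 from 13471655 to 14182287, plus strand) encodes an RNA-binding protein of the RALY family that is best known from brain. Its counts were 2, 0 and 0 in WT and 71 and 205 in DKO. The ratio of DKO to WT was 274, with an interval of 75.0 to 2271 that is wide because WT held 2 counts in all. Its relatives were abundant in every library and had differences near 0, *Raly* with a log2 fold change of 0.00 (SE, the standard error, 0.16, edgeR adjusted p = 0.997) and *Hnrnpc* with 0.11 (SE 0.08, adjusted p = 0.507). The lincRNA *Gm2464* starts on the opposite strand at the 5′ end of *Ralyl* and shares 175 exonic bases with it. *Gm2464* was not counted in WT and had 16 and 56 counts in DKO, the same order as *Ralyl*, and missed the threshold with an edgeR adjusted p of 0.0212. The library kit keeps no strand, so reads in the shared bases cannot be assigned to either gene.

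*Hoxd1*, the homeobox gene at the 3′ end of the Hoxd cluster, had 0, 2 and 1 counts in WT, against 20 and 39 in DKO. The 8 other *Hoxd* genes had 0 counts in all 5 libraries, so *Hoxd1* was counted with no read on another *Hoxd* gene. Its noncoding neighbour *Haglr*, 83 bases away on the opposite strand, had 0 counts in all libraries but DKO replicate 2, where it had 6. Of the gene classes counted by symbol, homeobox genes held *Vax2* and *Hoxd1*, predicted genes held 3 of the 23, and no other class held more than 1. Of 251 homeobox genes annotated by symbol 218 were silent in WT, and families outside these classes were not counted. *Grhl3*, an epidermal transcription factor of the grainyhead family, had 0, 1 and 0 counts in WT, against 27 and 24 in DKO. Here both DKO libraries gave nearly the same level, with a ratio of 1.04 (0.576 to 1.88) between them. Its relative *Grhl1* was tested and not called, and *Grhl2*, with at most 4 counts in any library, was not tested.

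Among surface proteins, *Vmn2r100* (ENSMUSG00000091859, chromosome 17 from 19504732 to 19535231), a vomeronasal receptor of the family that detects pheromones, had 3, 3 and 3 counts in WT, against 217 and 369 in DKO. It was the most abundant of the 23, with a ratio of DKO to WT of 129 (67.5 to 284). The vomeronasal family has many near-identical copies, and reads that map to several places were left out by the counting, so its level is uncertain. Of 561 annotated vomeronasal genes 555 were silent in WT and 4 were tested, and *Vmn2r100* was the 1 called higher. Most other reads of the family fell on *Vmn2r97*, named after its values were seen, with 372, 465 and 503 counts in WT, against 284 and 79 in DKO. Without these genes the family summed to 54, 47 and 55 counts in WT and 38 and 37 in DKO, which scaled to library size was at most 2.06 CPM in WT and 1.78 and 2.10 CPM in DKO, with 1 DKO library on either side of the WT libraries. Of 1399 olfactory receptor genes 3 were tested, 0 were members and 0 were called. Their summed level, scaled to library size, was 6.55, 6.50 and 6.71 CPM in WT and 9.12 and 9.60 in DKO, higher in both DKO libraries.

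*Egfr* (chromosome 11 from 16752203 to 16918158), the receptor for epidermal growth factor, had 1, 0 and 0 counts in WT, against 78 and 56 in DKO. The ratio of DKO to WT was 266 (46.9 to 10572). It was 1 of 3 genes with a lower level in DKO replicate 2 than in replicate 1, although the interval of that ratio, 0.587 to 1.20, held 1. None of the other ErbB receptors and EGF receptor ligands tested, 2 and 4 genes, was called by edgeR at an adjusted p of 0.01. *Efna5*, an ephrin that binds Eph receptors on neighbouring cells, had 3, 0 and 1 counts in WT, against 37 and 52 in DKO. The Eph A receptors were too low to be tested, and the exception in level was *Epha3*, named here after its values were seen, with 102 counts in DKO replicate 2 and at most 3 in each other library.

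*Kcnk1*, a potassium channel of the family with paired pore domains, had 1, 3 and 1 counts in WT, against 53 and 126 in DKO. Of 12 relatives 2 were tested, and *Kcnk7* fell, from 137, 98 and 135 counts in WT to 14 and 21 in DKO (log2 fold change -2.40, SE 0.36, edgeR adjusted p = 0.00381). Of the 10 genes of the thymic epithelial list, 4 were tested and 0 called, and 6 had at most 3 counts in every library. The tested genes had log2 fold changes of -5.05 (*Psmb11*, edgeR adjusted p = 0.0189), -2.52 (*Krt8*, 0.0642), -1.47 (*Prss16*, 0.0148) and 1.16 (*Epcam*, 0.116). The summed level of the list was 18.9 to 21.4 CPM in WT and 13.5 and 37.2 in DKO, and in DKO replicate 2 it rested on the 604 counts of *Epcam*.

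*Ncr1*, the NKp46 receptor of NK cells, had 1, 0 and 0 counts in WT, against 31 and 40 in DKO. It belongs to the NK cell list, and of the 4 other tested genes of that list 2 were called higher in DKO, where 2.42% of all tested genes were. They were *Klra7* (log2 fold change 3.85, SE 0.52, edgeR adjusted p = 0.00219) and *Klrb1c* (61, 39 and 43 counts in WT, against 144 and 318 in DKO, adjusted p = 0.00513). The summed level of that list was 2.74 to 5.49 CPM in WT, 20.6 in DKO replicate 1 and 58.1 in DKO replicate 2. Its part in the *Ncr1* counts was not tested. *Cd300lb*, an activating receptor of myeloid cells, had 0, 1 and 3 counts in WT, against 27 and 26 in DKO, and *Il1r1*, the signalling receptor for interleukin 1, had 3, 0 and 0 in WT and 21 and 20 in DKO. Of the myeloid and dendritic list 6 genes were tested and 0 called, with summed levels of 9.73 to 16.0 CPM in WT and 27.3 and 56.8 in DKO. Untested were *Itgax*, with at most 2 counts in every library, *Adgre1* (0, 4 and 1 counts in WT, 25 and 7 in DKO) and *Siglech* (0, 0 and 0, then 8 and 5). The tested genes of this list had a median log2 fold change of 1.49, against 0.01 over all tested genes. Of the 6, 5 were above 0, among them *Lyz2* (1.76, edgeR adjusted p = 0.0142) and *Csf1r* (edgeR adjusted p = 0.0294), while *Flt3* was at -1.64 (edgeR adjusted p = 0.126). The part of myeloid cells in these counts was not tested. Of the lists for other cells, the iNKT cell list had 3 genes higher and 1 lower of 5 tested, the list for CD4+CD8+ thymocytes 1 lower of 4, and the B cell, erythroid, and fibroblast and endothelial lists had 0 called of 4, 0 and 2.

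Among secreted proteins, the matrix protein *Spon2* had 3, 0 and 2 counts in WT, against 34 and 74 in DKO. *Lrrc17*, a leucine-rich repeat protein, had 0, 0 and 1 in WT and 32 and 49 in DKO. *Htra3*, a secreted serine protease, had 3, 3 and 2 in WT and 31 and 29 in DKO. *Htra3* had the lowest ratio of DKO to WT of the 22 genes with a WT count, 14.9 (7.08 to 36.0). Of enzymes, *Mapk10*, the JNK kinase best known from neurons, had 1, 0 and 0 counts in WT, against 61 and 29 in DKO, while its widely expressed relatives *Mapk8* and *Mapk9* were not called (edgeR adjusted p = 0.223 and 0.135). *Moxd1*, a relative of the monooxygenase that makes noradrenaline, had 2, 0 and 0 in WT and 34 and 21 in DKO. Over all 72 listed relatives, chosen after the 23 were known, 26 were tested, 0 were called higher and 1, *Kcnk7*, lower. Of all tested genes 2.42% were called higher and 1.50% lower, so the listed relatives were near the background. The list held no relatives of *Trgj4*, *Vmn2r100*, *Lrrc17*, *Tmem273* or the noncoding genes. In the locus of *Trgj4*, *Tcrg-C2*, *Tcrg-C4*, *Trgv2* and *Tcrg-V1* were called higher, as given below, and *Tcrg-C3* was not called.

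*Tmem273* and *Tpbgl*, both named by their sequence and of little-known function, had 1, 3 and 0 and 0, 1 and 2 counts in WT. In DKO replicates 1 and 2 *Tmem273* had 20 and 40 counts and *Tpbgl* 24 and 26. Of the noncoding genes, *Gm15987* had 0, 1 and 0 in WT and 31 and 66 in DKO, and *Gm15947* had 0, 1 and 2 in WT and 20 and 27 in DKO. *Gm41031* was the single gene with 0 counts in all WT libraries, and it had 21 and 55 in DKO. Against a floor of 3 counts over the WT group its level in DKO was 50.2-fold higher, with no allowance for counting error in DKO. *Trgj4*, a joining segment of the T cell receptor gamma locus, had 0, 3 and 1 counts in WT, against 20 and 20 in DKO, over a segment of 61 bases.

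All 23 genes passed the edgeR filter on low counts, and 22 were called higher at an adjusted p of 0.01, where 2.42% of 13525 tested genes were called higher and 3.92% were called in either direction. The counts that chose the genes also made these calls, so nothing is read from that share. *Gm41031* was the gene not called. With a WT library left out the number of the 23 called higher was 5, 2 and 2 for replicates 1, 2 and 3. In the same fits the share of all tested genes called higher also fell, to 0.783%, 0.523% and 0.587%. A further 4 autosomal genes met the mirrored limits, at least 20 counts in each WT library and at most 3 in each DKO library, but this asks for 20 counts in 3 libraries rather than 2.

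The limits cut through a range of values. With a lowest DKO count of exactly 20 were 5 of the 23, *Tmem273*, *Hoxd1*, *Gm15947*, *Il1r1* and *Trgj4*. Just below, with 19, were *Ppp1r14c* (1, 1 and 1 counts in WT, 19 and 32 in DKO), *H2-Eb2* (1, 0 and 0, then 19 and 28), *Arhgef28* (0, 0 and 0, then 28 and 19) and *Flrt2* (0, 0 and 0, then 19 and 89). Just above the WT limit, with a highest WT count of 4, were 6 genes, among them *Gm28438* (4, 1 and 0 in WT, 65 and 76 in DKO) and *Bcl2a1a* (4, 2 and 0, then 33 and 45). Of the 23, 10 had a highest WT count of 3. At a DKO limit of 50 counts 5 genes were left, *Vmn2r100*, *Ralyl*, *Egfr*, *Vax2* and *Kcnk1*.

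**Figure D3:**
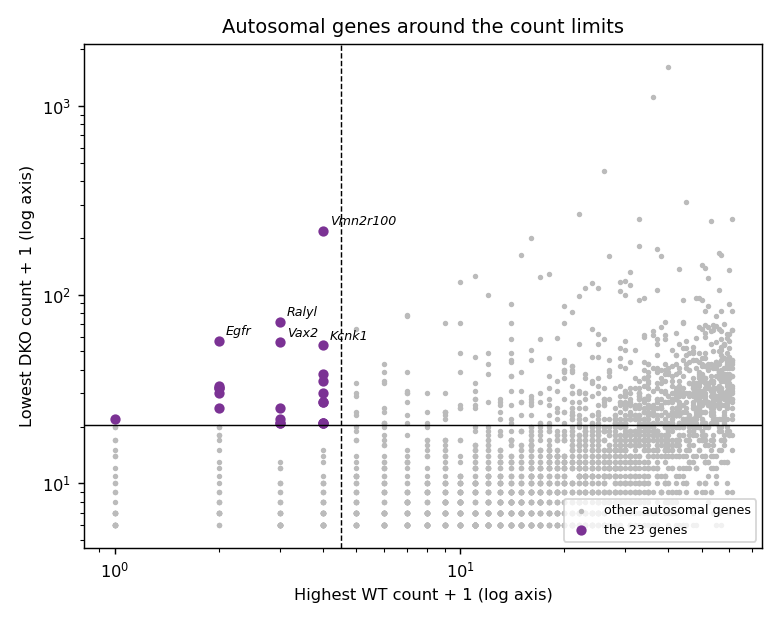
Highest WT count plus 1 (horizontal, log axis) against lowest DKO count plus 1 (vertical, log axis) for autosomal genes with a highest WT count of at most 60 and a lowest DKO count of at least 5. The dashed and solid lines are the limits of 3 and 20 counts, and the 23 genes in the upper left thin out gradually from the line, with *Vmn2r100* farthest above it.

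Levels in DKO were low. In CPM after TMM scaling, which allows for differences in library make-up, the mean of the DKO libraries ran from 1.04 in *Trgj4* to 15.5 in *Vmn2r100*, with a median of 2.04 over the 23 genes and 18.3 over all tested genes. *Vmn2r100* had 15.5 ± 7.28 CPM (SD, n = 2) in DKO and 0.117 ± 0.00861 (SD, n = 3) in WT, *Vax2* had 9.84 ± 10.2 and 0.0512 ± 0.0188, and *Ralyl* had 7.43 ± 5.72 and 0.0258 ± 0.0447. The SD of *Vax2* in DKO exceeded its mean. Per kilobase of exon, the scale on which genes can be compared, the median of the 23 genes was 0.842 CPM, against 4.11 for tested genes, which put it at percentile 22.6. On that scale *Vax2*, at 7.93, stood above *Vmn2r100*, at 2.67, because its exons are much shorter (1242 against 5803 bases). *Vax2* and *Trgj4* were above the median of the tested genes, the latter through its 61 bases.

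The 2 DKO libraries differed in these genes. After scaling, 20 of the 23 were higher in DKO replicate 2 and 3 were lower, with a median ratio of 1.65 of replicate 2 to replicate 1. Over all tested genes the median ratio was 0.998 and 49.7% were higher in replicate 2, and over the 305 other genes called higher the median was 1.14 and 64.3% were. The limit of 20 counts stood for 0.953 CPM in DKO replicate 1 and 1.12 CPM in the shallower DKO replicate 2, so the rule itself favoured genes higher in replicate 2, and the shares are a description. In unscaled counts 15 genes were higher in replicate 2, 7 lower and 1 equal. The ratio was highest in *Vax2*, 6.51 (4.87 to 8.84), followed by *Ralyl* with 3.39 (2.58 to 4.50), *Gm41031* with 3.07 (1.83 to 5.35) and *Kcnk1* with 2.79 (2.01 to 3.92). It was lowest in *Mapk10*, 0.558 (0.346 to 0.882), then *Moxd1*, 0.725 (0.400 to 1.29), and *Egfr*. The counting interval lay above 1 for 12 genes, below 1 for *Mapk10* alone, and held 1 for the other 10. Of the genes silent in WT, 92 more reached 20 counts only in DKO replicate 2, the shallower library, and 13 more only in DKO replicate 1. *Ccl3* was 1 of the former, with 1, 1 and 2 counts in WT, against 12 and 717 in DKO. By *Xist* and Y-linked counts DKO replicate 1 looked female and DKO replicate 2 male. Mouse, sex, library and the mismatch of DKO replicate 1 with its label cannot be told apart here.

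**Figure D4:**
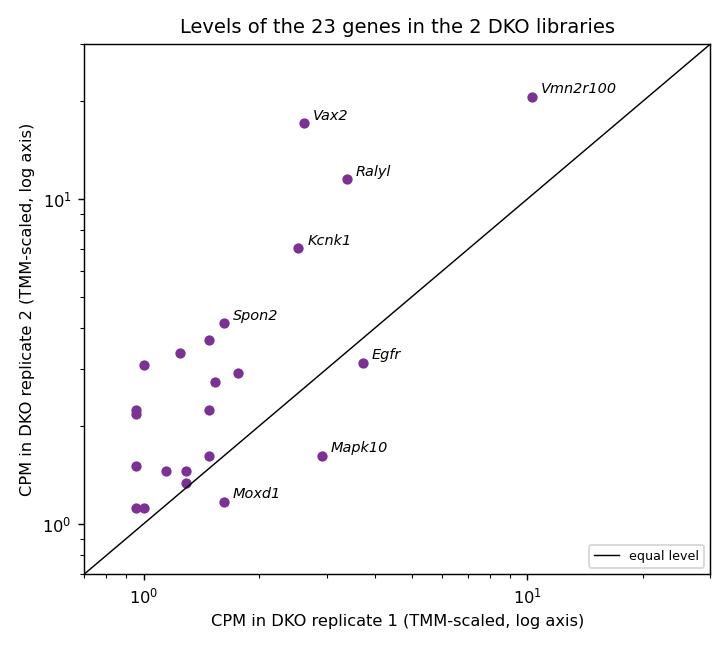
CPM of the 23 genes in DKO replicate 1 (horizontal, log axis) and DKO replicate 2 (vertical, log axis), with the line of equal level. Most points, 20 of 23, lie above the line, *Vax2* farthest from it, and *Egfr*, *Mapk10* and *Moxd1* lie below.

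The 23 genes were spread over the genome. They lay on 13 of the 19 autosomes, with none on chromosomes 9, 12, 15, 16, 18 and 19. Chromosome 5 held 4 of them, *Lrrc17*, *Spon2*, *Htra3* and *Mapk10*, and chromosomes 6 and 17 held 3 each. The closest pair was *Spon2* and *Htra3*, 2.43 Mb apart, followed by *Vmn2r100* and *Gm15947* at 4.32 Mb. No gene of the set had another within 1000 kb. Gene bodies had a median length of 29.7 kb, from 0.0610 kb in *Trgj4* to 711 kb in *Ralyl*, and 31.7 kb for the protein-coding ones against 23.7 kb for tested protein-coding genes. The bodies of 12 overlapped another annotated gene, 6 of them in exons, and 12 of 20 such partners had 0 counts in all libraries. The highest count of any partner was 56, for *Gm2464*. Reads in shared exons were left out by the counting.

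Genes next to the 23 were called higher in a larger share than tested genes overall. Within 100 kb lay 43 tested genes outside the set, of which 8 were called higher (18.6%, against 2.42% of all tested genes) and 0 lower (against 1.50%). The 8 stood next to 4 of the 19 genes that had a tested neighbour, and 4 of them were T cell receptor gamma genes around *Trgj4*. Leaving out the neighbours of *Trgj4*, a choice made after seeing the data, 4 of 37 were called higher (10.8%). With WT replicates 1, 2 and 3 left out in turn, 5, 4 and 4 neighbours were called higher (11.6%, 9.76% and 9.30%), where 0.783%, 0.523% and 0.587% of all genes tested in the same fit were. Without DKO replicate 1, which goes against its label, 12 were called higher (27.9%), where 6.57% of all genes tested were. Within 50 kb 5 of 24 were called higher (20.8%), next to 2 of 16 genes of the set. The 4 gamma genes were among these 5. Within 500 kb 14 of 203 were called higher (6.90%), next to 6 of 22 genes of the set and mostly around *Trgj4* and *Gm15987*. In that range 4 were lower, 1 of which was *Tet3* itself, 252 kb from *Vax2*. The neighbours were tested in the same libraries as the rule used, so their share is a description.

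**Figure D5:**
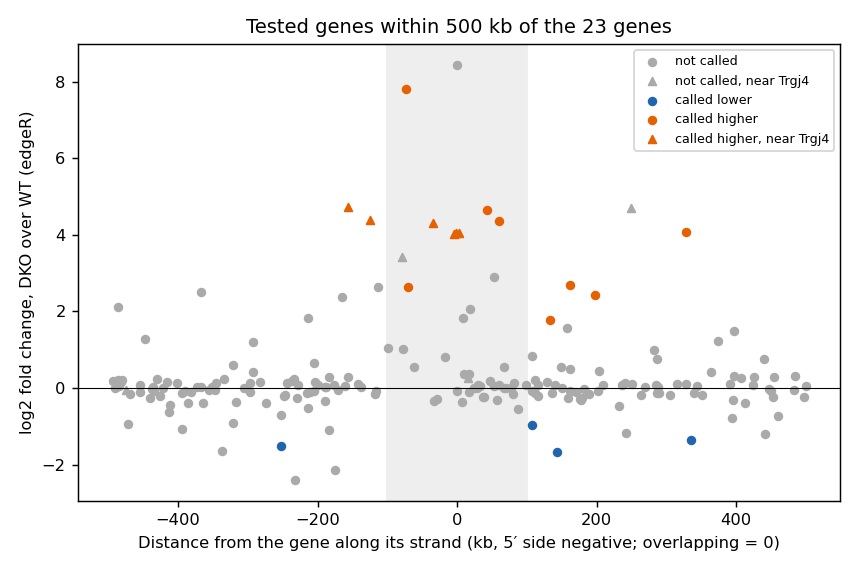
edgeR log2 fold change of DKO over WT (vertical) for tested genes within 500 kb, by distance in kb along the strand of the nearby gene of the set (horizontal, 5′ side negative). Grey shading covers 100 kb, triangles are genes near *Trgj4*, and within the shading the called genes, 8 in number, all lie above 0.

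Around *Trgj4* (chromosome 13 from 19342152 to 19342212), *Tcrg-C4* had 131, 90 and 118 counts in WT, against 1076 and 1680 in DKO, a log2 fold change of 4.04 (SE 0.27, edgeR adjusted p = 3.86e-05). *Tcrg-C2*, 34.6 kb away, had 186, 171 and 161 counts in WT, against 2215 and 2918 in DKO (log2 fold change 4.32, SE 0.20, adjusted p = 4.88e-06). *Trgv2* and *Tcrg-V1* rose by 4.03 and 4.05 on the same scale. All WT libraries held reads of these genes, while *Trgj4*, of 61 bases, had few. In the gamma-delta T cell list 5 genes were tested and 3 higher (against 2.42% of all tested genes), all gamma constant genes, while *Trdc*, the delta constant gene, was not called (edgeR adjusted p = 0.377) and *Sox13*, a factor of gamma-delta cells, had 28, 25 and 26 counts in WT, against 5 and 4 in DKO. The part of gamma-delta T cells in the *Trgj4* counts was not tested further.

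*Gm15987* lies in the NK gene complex on chromosome 6, which holds lectin-like receptor genes. Its neighbours *BC035044*, 60.1 kb away, and *Klrb1f*, 70.9 kb away, were called. *BC035044* had 20, 16 and 21 counts in WT, against 268 and 317 in DKO (log2 fold change 4.35, SE 0.29, edgeR adjusted p = 3.86e-05), and *Klrb1f* had 49, 55 and 38 in WT and 165 and 279 in DKO (2.64, SE 0.36, adjusted p = 0.00219). *Clec2i*, in the same stretch, was abundant in all libraries and did not pass, with a log2 fold change of 0.05 (SE 0.13, adjusted p = 0.880). *Arhgef28*, 73.6 kb upstream of *Gm41031* on the same strand, missed the DKO limit by 1 count.

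Next to *Vax2*, as next to most of the 19 genes with a tested neighbour, none was called. *Vax2os*, its antisense partner, had 0 counts in every library, *Atp6v1b1* at most 1, and the tested neighbours within 100 kb, *Tex261*, *Nagk* and *Paip2b*, had log2 fold changes of 0.09, -0.30 and 0.01. *Vax2* lies on the same chromosome as the floxed *Tet3*, 252 kb from it, with 12 annotated genes between. Of these 3 were tested and 0 called, *Actg2* being the largest with 62, 89 and 77 counts in WT, against 12 and 14 in DKO (log2 fold change -2.14, edgeR adjusted p = 0.0153). Of 15 germline genes held silent by promoter methylation in other tissues, 0 were tested, 13 had at most 3 counts in every library, and none was among the 23.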

How the data were processed

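RNA of sorted CD4 SP cells from 3 WT and 2 *Tet2/3* DKO mice was analysed, 1 library per mouse. The authors trimmed the SMART-seq reads with fastp 0.21.0, aligned them to mm10 with STAR 2.7.5a, using the GRCm38.100 transcripts, and deposited counts of reads per gene, without normalization or pooling. Reads on several places or on overlapping genes were left out. Deposited tables of T cell receptor clonotypes were not used here.

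The counts without regard to strand were used. Symbols, biotypes and positions came from GENCODE M21, which matched 55141 of 55487 identifiers, and promoters from RefSeq. Counts were tested with edgeR 4.0.16 (quasi-likelihood, newer dispersion moderation, TMM, filterByExpr, Benjamini-Hochberg adjusted p under 0.01, the study's threshold) in R 4.3.3, and with DESeq2 1.42.0, the study's tool, as an alternative. Standard errors are the log2 fold change divided by the root of F. The edgeR script was tested on simulated counts. Ratios and intervals were computed in Python 3.11.15 with scipy 1.17.1.

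Groups came from the labels. The 23 genes and all lists were chosen with earlier results of these data known, and the list of relatives and the roles after the 23 were seen. Named are *Ralyl*, *Vax2*, the 20 genes with the highest DKO level, those nearest the limits, the highest and lowest ratios between DKO libraries, called neighbours within 100 kb, list genes, *Tet* genes and sex-linked genes. The remaining members, relatives, overlapping or neighbouring genes that were not called and *Ccl3* were named after their values were seen. Some genes, among them 1 of the 23 by name and a gene the study names, are not reported here.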

Additional observations from a re-analysis of the deposited data

How the results depend on the processing

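The number of genes that met the limits depended on the limits. It was 1, 7, 38 and 72 with a WT maximum of 0, 1, 5 and 10 counts, 48, 5 and 1 with a DKO minimum of 10, 50 and 100, 7 and 9 when the counts of a single strand were used, 20 with counts scaled to the smallest library, and 28 to 115 when a library was left out. Genes called by edgeR, 530, came to 1027 with DESeq2, 1173 at an adjusted p of 0.05, and 110 to 1311 when a library was left out. Where 1 DKO library was left, it was assumed to vary like the WT libraries. Calls among the 23 genes ranged from 2 to 23, called neighbours from 4 to 12 and called list genes, 16 in all, from 6 to 25 when a library was left out. Called neighbours were 5 within 50 kb, 14 within 500 kb and 4 without those of *Trgj4*. Replicate numbers 1 and 2 are shared by the genotypes in the labels, but the mice differ and deviations of same-numbered libraries correlated at 0.02 and 0.01. With a replicate block 358 genes, 20 of the 23, 8 neighbours and 13 list genes were called. The lowest fitted difference of the 23 genes over these settings was 3.61 on the log2 scale, and its direction was fixed by the choice of the genes. With 2 DKO libraries, of which 1 goes against its label, the spread within DKO rests on a single pair.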
